A study of Mus musculus with 4 samples.

Results

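Transcripts that mark fat cells and brown fat were followed in mouse liver, gene by gene and array by array. The set holds 10 genes: Cfd, Adipoq, Retn, Lep, Ucp1, Cidea, Slc36a2, Aoc3, Aqp7 and Mrap. They were selected on their measured ratios, several of which were highest on array 3, so those ratios are given as a description and not as a test. Matching the gene name in the scanner files found 13 probes for them, among 41174 probes and 27670 gene names on the array.

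The livers came from male C57BL/6 mice on a high-fat diet, whose age is not given in the labels. The mice were injected into the abdomen with 25 mg/kg of an antisense oligonucleotide (ASO), 2 times a week for 4 weeks. An ASO pairs with a transcript and lowers it, here that of Plin2, which encodes a protein of the lipid droplet surface. Control mice received a scrambled ASO on the same diet and schedule, so no untreated mouse and no other diet served as a comparison. The 4 arrays set control livers 1, 2, 4 and 5 (red dye, Cy5) against livers 6, 7, 9 and 10 labelled Plin2-ASO (green dye, Cy3). Each group kept its dye on all arrays, so a probe's preference for a dye cannot be told apart from the treatment.

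White fat cells store triglyceride and release hormones such as adiponectin, leptin and, in mice, resistin, together with the complement protease adipsin. Brown fat cells carry uncoupling protein 1 in their mitochondria, which turns fuel oxidation into heat. A liver consists mostly of hepatocytes, and most of these genes are known from fat tissue rather than from hepatocytes, although the lipid droplet protein Cidea is known to appear in fatty liver.

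The labelled tissue matched its markers: of 12 hepatocyte markers 11 were measured, and the log2 signal of albumin (Alb) lay between 15.31 and 17.62 in the 8 livers. The targeted transcript, Plin2, did not read lower where the label is Plin2-ASO, with log2 ratios of 0.24, 0.15, 0.83 and 0.36 on arrays 1 to 4 and a mean of 0.40 ± 0.15 (SE, n = 4; adjusted p = 0.155 by limma). A positive ratio means a higher level in the liver labelled Plin2-ASO, and every direction given here rests on the dyes in the labels. Array 3 stood apart over the whole array. Across genes, which are no independent replicates, its mean correlation with the remaining arrays was 0.327, whereas theirs ran from 0.515 to 0.654. Spots marked as outliers made up 7.61% of it and 1.5% to 3.83% of the rest, and its median signal was the lowest in green (244) and the highest in red (637). With 4 arrays, precision is limited by their number.

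Of the 10 genes 8 could be tested. Resistin (Retn) was too dim, and Cidea was marked as an outlier spot on 3 of 4 arrays. By limma with Benjamini-Hochberg adjustment, 1 of the 8, Cfd, passed the threshold of 0.05, where 9.76% of the 18045 genes tested did; nothing is read from this count, since these ratios chose the genes. The count was 0 without array 2 and 2 without array 3. Over all genes the calls went from 1761 to 367 and 5889. Without array 3 Ucp1 passed as well with a mean of -0.36, but its probe was not well above background in livers 6 and 7. The ratio was highest on array 3 for 7 of the 8 and highest on array 4 for Lep. Array 3 was the highest array for 45% of the 16133 genes measured on every array. The median log2 ratio of the 8 genes was 1.69 on array 3 and lay between -0.05 and 0.19 on arrays 1, 2 and 4. In bulk RNA, more cells of a type and more RNA per cell cannot be told apart.

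**Figure D1:**
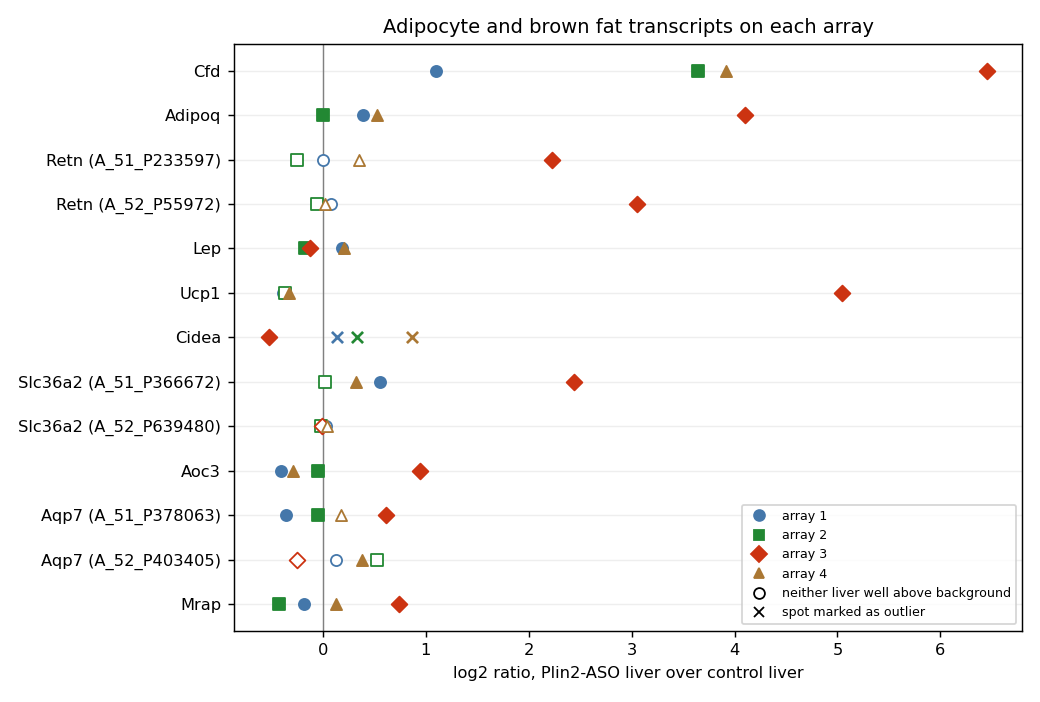
Log2 ratio of each probe of the 10 genes (rows) on each array, as the liver labelled Plin2-ASO over the control liver; 1 point is 1 array. Open symbols were not well above background in either liver and crosses are spots marked as outliers. Array 3 (red diamonds) reads 6.45 for Cfd, 5.04 for Ucp1 and 4.10 for Adipoq, and -0.13 for Lep.

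Among the secreted proteins, the groups of adipsin did not overlap over all 8 livers. How many of all genes did so was not counted, and these ratios chose the genes, so nothing is read from it. Cfd (transcript NM_013459) encodes adipsin, also called complement factor D, which cleaves factor B in the alternative complement pathway. Its probe lies at chr10:79672573-79672632 on the + strand of mouse build mm7. The opening 30 of its 60 bases are shown to identify the transcript with the widest span of log2 signal among the livers labelled Plin2-ASO.
Cfd: aacatcacaaatggtaacatgacatccTGA
The capitals mark the first stop triplet, at base 28, in the reading frame with the latest stop. The log2 signal of Cfd was 8.96, 12.12, 14.33 and 12.43 in livers 6, 7, 9 and 10 labelled Plin2-ASO. In control livers 1, 2, 4 and 5 it was 7.86, 8.47, 7.88 and 8.52. The groups did not overlap, and the control livers lay within 0.65 of each other while the livers labelled Plin2-ASO spread over 5.37. The log2 ratios were 1.10, 3.64, 6.45 and 3.91 on arrays 1 to 4, which are 2.14-fold, 12.5-fold, 87.4-fold and 15.1-fold higher. Their mean was 3.78 ± 2.19 (SD, n = 4), and 2.89 without array 3. Cfd was thus not a transcript of array 3 alone: 14 genes had a higher ratio on array 2 and 1 gene had a higher ratio on array 4, as on array 3, whereas 287 did on array 1.

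Adiponectin followed another pattern, high in a single liver. Adipoq (NM_009605) encodes a hormone that fat cells secrete and that acts on liver and muscle. Its probe, at chr16:22816125-22816184 on the + strand, is printed because it read high in 1 liver of 8.
Adipoq: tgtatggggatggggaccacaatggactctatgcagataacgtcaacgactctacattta
Its log2 signal was 8.69, 8.28, 11.90 and 8.76 in livers 6, 7, 9 and 10, and 8.30, 8.28, 7.80 and 8.24 in control livers 1, 2, 4 and 5. Every spot was well above background. Liver 9 was high, its partner on array 3, control liver 4, was the lowest of all, and the groups overlapped. On arrays 1 to 4 this gave log2 ratios of 0.39, -0.002, 4.10 and 0.52, so that array 3 gave a 17.1-fold higher level and the others 1.44-fold at most. The mean of 1.25 ± 1.91 (SD, n = 4) became 0.30 without array 3.

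Resistin is a small hormone of mouse fat cells. Retn (NM_022984) had a pair of probes that each cover 822 bases of the genome with 60 bases of sequence, as across an exon junction (chr8:3618519-3619340 and chr8:3618557-3619378, + strand). They are printed because they share sequence and are therefore not independent readings of the transcript; the capitals mark the 22 shared bases.
Retn, probe A_52_P55972: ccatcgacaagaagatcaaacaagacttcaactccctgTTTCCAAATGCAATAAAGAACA
Retn, probe A_51_P233597: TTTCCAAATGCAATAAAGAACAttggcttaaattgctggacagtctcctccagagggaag
Both were well above background in liver 9 and in no other liver. Probe A_52_P55972 had a log2 signal of 7.12, 7.09, 9.08 and 6.59 in livers 6, 7, 9 and 10 and of 7.05, 7.14, 6.03 and 6.57 in the control livers. Its log2 ratios were 0.07, -0.05, 3.05 and 0.02, and those of probe A_51_P233597 were -0.0042, -0.26, 2.23 and 0.35. No control liver gave a signal well above background. Averaged over the arrays, and with control values no lower than the dimmest measured probes, A_52_P55972 came out 1.25-fold higher. This rests on liver 9, since livers 6, 7 and 10 were not well above background either. Without array 3 the mean log2 ratio was 0.01, so the fold is no bound for the group. For A_51_P233597 the same calculation gave no fold.

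Leptin, the fat-cell hormone that signals energy stores to the brain, did not read high on array 3. Lep (NM_008493, chr6:29005380-29005439, + strand) was spotted 10 times on each array. Its log2 signal was 7.74, 7.74, 7.73 and 7.78 in livers 6, 7, 9 and 10, and 7.55, 7.91, 7.86 and 7.58 in the control livers. The livers labelled Plin2-ASO lay within 0.05 of each other, inside the range of the controls. The log2 ratios were 0.18, -0.17, -0.13 and 0.20, with a mean of 0.02 ± 0.20 (SD, n = 4). Within an array the single spots of Lep, of which 8 to 10 were averaged, had an SD of 0.12 to 0.17. In liver 9 the probe was not well above background, as only 4 of its 10 spots were, and it passed in the other 7 livers.

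Of the brown fat genes, Ucp1 lay further above its next highest array on array 3 than any other gene measured on all arrays. Ucp1 (NM_009463) encodes the mitochondrial uncoupling protein of brown and beige fat cells. Its probe, at chr8:81866808-81866867 on the + strand, is printed for that reason.
Ucp1: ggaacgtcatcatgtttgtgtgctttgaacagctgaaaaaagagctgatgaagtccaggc
The log2 signal was 7.54, 7.12, 12.48 and 7.80 in livers 6, 7, 9 and 10, and 7.93, 7.50, 7.43 and 8.13 in control livers 1, 2, 4 and 5. Liver 9 was high, and the other livers labelled Plin2-ASO overlapped the controls. Its ratios were -0.39, -0.37, 5.04 and -0.33 on the log2 scale, a 33.0-fold higher level on array 3 and a slightly lower one on each other array. The mean of 0.99 ± 2.70 (SD, n = 4) turned to -0.36 without array 3. Apart from liver 9 the probe was near background: it passed in 1 further liver labelled Plin2-ASO and in 3 control livers. The gap between array 3 and the next array was 5.37, which ranked 1 among 16133 genes; Adipoq ranked 3 (3.58), Cfd 6 (2.54) and Slc36a2 14 (1.89).

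Slc36a2 encodes an amino acid transporter of the proton-coupled family that serves as a brown fat marker. Its probe for NM_153170 (chr11:55115389-55115448, - strand) had a log2 signal of 8.65, 7.42, 9.34 and 7.98 in livers 6, 7, 9 and 10, and of 8.10, 7.39, 6.89 and 7.66 in the controls. Liver 9 was the highest. Its partner, control liver 4, read lowest but was not well above background, so the ratio of array 3 is set against an undetected value. The log2 ratios were 0.55, 0.02, 2.44 and 0.32, with a mean of 0.83 ± 1.09 (SD, n = 4) and of 0.30 without array 3. A further probe, for another transcript of the gene (chr11:55125250-55125309), stayed near background in all 8 livers and read -0.01 to 0.04.

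Cidea, which promotes the fusion and growth of lipid droplets, went the other way on array 3. Its probe (NM_007702, chr18:67759992-67760051, + strand) was bright in every liver, but the scanning software marked the spot as an outlier on arrays 1, 2 and 4, so that only array 3, with a log2 ratio of -0.52, was used. With the marked spots kept the ratios were 0.13, 0.33, -0.52 and 0.86 and the mean was 0.20 ± 0.57 (SD, n = 4). On the same footing its log2 signal was 12.16, 12.67, 12.42 and 13.31 in livers 6, 7, 9 and 10, and 12.03, 12.34, 12.94 and 12.45 in the control livers. Array 3 was the lowest of the 4 for Cidea and the highest for Ucp1, and the groups overlapped.

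The remaining 3 genes had small ratios. Aoc3 encodes the semicarbazide-sensitive amine oxidase of fat cells and vessels, also known as vascular adhesion protein. Its log2 signal (NM_009675, chr11:101448270-101448329, + strand) was 6.91, 7.71, 8.28 and 7.45 in livers 6, 7, 9 and 10, and 7.32, 7.76, 7.34 and 7.74 in the controls. The log2 ratios were -0.41, -0.05, 0.94 and -0.29, positive on array 3 alone, and the mean of 0.05 ± 0.61 (SD, n = 4) became -0.25 without it. In liver 6 the probe was not well above background, so the ratio of array 1 rests on an undetected value.

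Aqp7 encodes the aquaglyceroporin through which fat cells release glycerol. The brighter of its probes (chr4:41172651-41172710, - strand) had a log2 signal of 7.20, 7.90, 8.38 and 7.42 in livers 6, 7, 9 and 10, and of 7.55, 7.95, 7.77 and 7.25 in the controls. Its log2 ratios were -0.35, -0.05, 0.61 and 0.17, with a mean of 0.10 ± 0.41 (SD, n = 4). The dimmer probe (NM_007473, chr4:41172673-41172732) read 0.12, 0.53, -0.26 and 0.38 and was well above background in 1 liver, liver 10. The probes disagreed in sign on arrays 1, 2 and 3. They share 38 bases with 1 difference, G40A, which gives the base of the dimmer probe first and counts from its 5′ end.

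Mrap encodes the accessory protein that carries the receptor for adrenocorticotropin to the cell surface, and it is abundant in fat cells and the adrenal gland. Its probe (NM_029844, chr16:90799514-90799573, + strand) was bright in every liver. The log2 signal was 11.66, 11.97, 12.32 and 11.80 in livers 6, 7, 9 and 10, and 11.85, 12.40, 11.58 and 11.67 in the controls. Its log2 ratios were -0.19, -0.43, 0.74 and 0.13, with a mean of 0.06 ± 0.50 (SD, n = 4) and of -0.16 without array 3. Aoc3, Aqp7 and Mrap were each highest on array 3, but 1105, 2515 and 1869 of the 16783 genes measured there had a higher ratio.

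**Figure D2:**
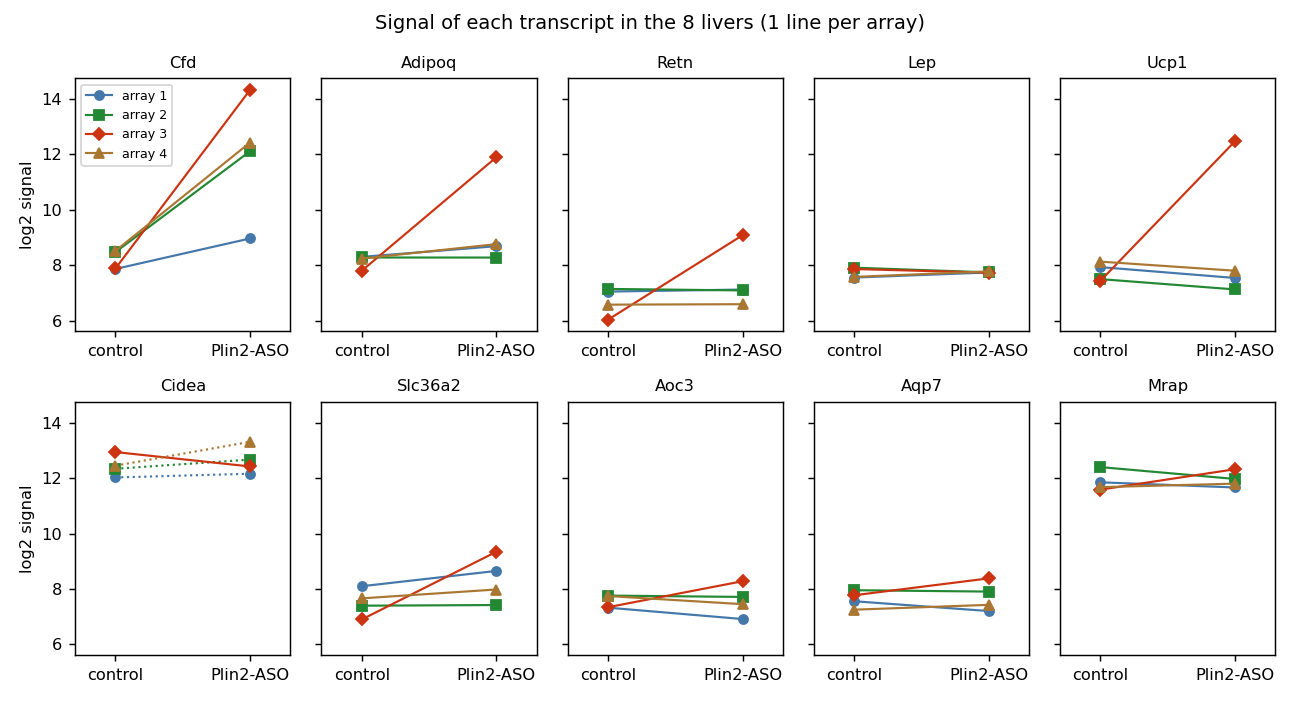
Log2 signal (vertical axis) of the brightest probe of each of the 10 genes in the control liver and the liver labelled Plin2-ASO of each array; each line joins the livers of 1 array, and dotted lines are spots marked as outliers. The line of array 3 climbs to 14.33 for Cfd, 12.48 for Ucp1 and 11.90 for Adipoq, while Lep stays between 7.55 and 7.91 in all 8 livers.

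Array 3 kept its place as the highest array for most of these genes when the ratios were made in other ways, but the size of its values moved. Under 8 ways of making them (the main one, no background correction, a smaller offset, the scanning software's ratios, the authors' table, median centring, scaling between arrays and marked spots kept), Ucp1 on array 3 ran from 4.08 to 5.75 and on the other arrays from -0.97 to -0.17. Adipoq on array 3 ran from 3.32 to 4.61, Cfd from 5.22 to 6.90, and Slc36a2 (NM_153170) from 1.98 to 3.81. Retn moved most, from 2.47 to 5.53 with probe A_52_P55972 and from 1.80 to 4.37 with A_51_P233597. Aoc3 ran from 0.76 to 1.67. Array 3 was the highest array in 8 of 8 for these genes, for both Retn probes, Aoc3, the brighter Aqp7 probe and Mrap, and in 0 of 8 for Lep. Cidea on array 3 ran from -0.71 to -0.42.

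Genes with the most similar pattern were found by the mean absolute difference between their 4 log2 ratios and those of each of the 8 genes, among the genes measured on all arrays. Cox8b, a cytochrome c oxidase subunit of heart, muscle and brown fat, lay 0.08 from Adipoq and 0.73 from Ucp1. Its log2 ratios were 0.47, 0.05, 4.20 and 0.46. For Adipoq the next were Slc36a2 and Pfkfb3, and for Ucp1 they were Adipoq (0.74) and Gadd45a (0.89). For Slc36a2 they were Pfkfb3, Ssu72 and Enox2 (0.31 to 0.32). Cfd had no near neighbour: Emc9, Ces1f and Slco1a1 lay 1.45 to 1.57 away and were over 2 on each array, including array 1. For the small patterns the nearest were Ngfr, Aptx and Ssb for Aoc3, Cebpb, Slc2a1 and Pus1 for Aqp7, Esf1, Slc23a2 and Xlr for Mrap, and AI854703, AB182283 and Ppy for Lep, all within 0.09.

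Other genes of fat cells did not all share the array 3 pattern. Of 22 further genes listed as adipocyte-restricted 16 were tested, of which 2 rose and 3 fell by limma, beside 3.69% of all genes that rose and 6.07% that fell. The list does not read fat cells alone. Mean log2 signals in control livers were 15.8 for Cdo1, 14.6 for Lpl, 14.1 for Fabp4 and 13.8 for Gpd1, against 7.9 for Plin1 and 7.7 for Sncg. Npr3, the clearance receptor for natriuretic peptides, rose by 1.03 ± 0.16 on the log2 scale (SE, n = 4; adjusted p = 0.0118). The hormone-sensitive lipase Lipe rose by 0.74 (adjusted p = 0.0413, 3 arrays, as the spot of array 3 was left out). Of its other probes A_51_P435363 read 0.65, 1.00, 0.90 and 0.91 and A_51_P174133 had a mean of 0.07. The lipoprotein lipase Lpl fell by 2.41 ± 0.22 (adjusted p = 0.0024). The fatty acid receptor Ffar4 fell by 1.34 ± 0.13 (adjusted p = 0.00269), and Mest, an imprinted gene linked to fat cell size, fell by 1.83 ± 0.35 (adjusted p = 0.022). Lpl and Ffar4 were lower on all 4 arrays, array 3 included.

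The median of the adipocyte-restricted list was 0.22, against -0.03 over all genes, and -0.05 without array 3. Array by array the list median was -0.12, -0.17, 0.04 and -0.08. Leaving out arrays 1, 2 or 3 changed the count called from 5 to 2, 2 and 10, and that of all genes from 1761 to 365, 367 and 5889. Npr3, Lipe and Mest lost the call without array 1 or without array 2. Within the list, array 3 was the highest array for 12 of 16 genes, and it was so for 45% of the genes measured on every array. The 4 list genes with the widest gap to the next array are given here, named after their values were seen. The fatty acid binding protein Fabp4 read -2.17, -1.70, 1.69 and -1.16, and its other probes read 2.16 and 2.33 on array 3 and between -3.17 and -1.95 on the others. The lipid droplet coat protein Plin1 read -0.10, -0.24, 1.96 and -0.57. Mest read -2.66, -2.28, -0.37 and -1.99, and Cidec, a relative of Cidea, read -2.88, -1.80, 0.04 and -1.06. Fabp4 and Plin1 thus changed sign between array 3 and each other array.

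Among 6 genes of that list too dim to test, Adig and Nnat read 0.86 and 0.91 on array 3 and were well above background in liver 9 alone. Acvr1c, Lgals12, Hcar1 and Sfrp5 were not well above background in liver 9.

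**Figure D3:**
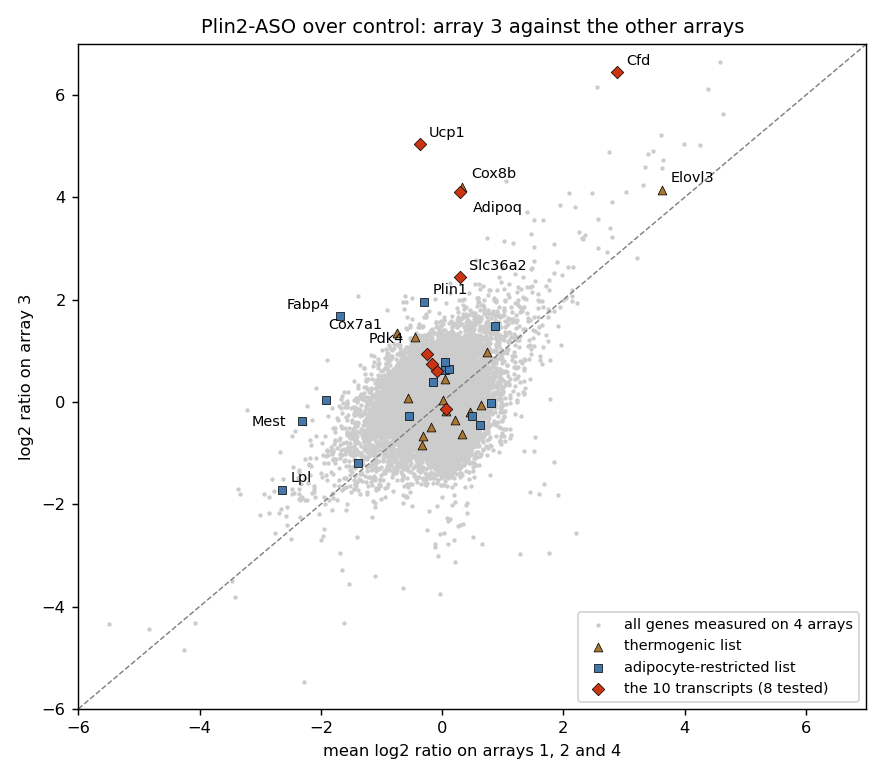
Log2 ratio of each gene on array 3 (vertical axis) against its mean on arrays 1, 2 and 4 (horizontal axis), for the 16133 genes measured on every array; the dashed line marks equal values. Ucp1 at 5.04 against -0.36, Cox8b at 4.20 and Adipoq at 4.10 lie far above the line, while Elovl3 and Lpl lie close to it.

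A list of adipocyte genes that the liver also expresses had all 15 members tested, with a median of 0.08. Of these 4 rose and 2 fell (26.7% and 13.3%), beside 3.69% and 6.07% of all genes. Thrsp, a regulator of fatty acid synthesis, rose by 2.77 ± 0.20 (SE, n = 4; adjusted p = 0.00143), and the carbonic anhydrase Car3 rose by 1.22 ± 0.15 (adjusted p = 0.0048). Agpat2 and Acsl1, which act in triglyceride synthesis and fatty acid activation, rose by 0.86 (3 arrays, array 3 missing; adjusted p = 0.0295) and 0.83 (adjusted p = 0.0498). The retinol carrier Rbp4 fell by 1.36 ± 0.18 (adjusted p = 0.0069) and the fatty acid transporter Cd36 by 2.22 ± 0.34 (adjusted p = 0.0103). The list had medians of -0.18, 0.22, -0.03 and 0.23 on arrays 1 to 4, so that array 3 lay between the others. Acsl1 lost the call without array 1 or 2 (adjusted p = 0.227 and 0.185). Without array 3 the list count rose from 6 to 10, and that of all genes from 1761 to 5889.

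Of 28 further thermogenic and brown fat genes 21 were tested. Of these 2 rose (9.52%), beside 3.69% of all genes that rose and 6.07% that fell. The elongase Elovl3 rose by 3.76 ± 0.37 (SE, n = 4; adjusted p = 0.00279) and the acyl-CoA thioesterase Acot11 by 0.80 ± 0.13 (adjusted p = 0.0125), and none fell. Elovl3 read 4.30, 4.43, 4.15 and 2.14, high on every array, so it did not follow Ucp1. Esrra and Fgf21, next by p, had means of -0.41 and -0.45 (adjusted p = 0.161 and 0.163). The list median was 0.07, and 0.16, 0.05, -0.02 and 0.18 on arrays 1 to 4. Leaving out arrays 1, 2 or 3 changed the count called from 2 to 1, 1 and 8, and that of all genes from 1761 to 365, 367 and 5889. Acot11 lost the call without array 1 or 2.

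Only some brown fat genes were high on array 3. Cox8b had a log2 signal of 9.40, 7.66, 12.35 and 8.29 in livers 6, 7, 9 and 10, and of 8.92, 7.61, 8.15 and 7.84 in the controls. Its gap of 3.73 to the next array ranked 2, between Ucp1 and Adipoq, and its mean of 1.29 ± 0.64 (SE, n = 4) did not pass the test (adjusted p = 0.243). The muscle-type oxidase subunit Cox7a1 read -1.14, -0.76, 1.35 and -0.31 and the kinase Pdk4 read -0.20, -0.67, 1.26 and -0.45. The regulators of brown fat identity Prdm16, Ebf2 and Lhx8 read -0.17, -0.49 and 0.11 on array 3. The coactivator Ppargc1a read -0.84 there and the deiodinase Dio2 -0.36. Zic1 and Ucp3 were not well above background in any liver.

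Receptors, partners and paralogues of the 10 genes were described next. Of 29 such genes 24 were tested, with a median of -0.04. Of these 0 rose and 1 fell (4.17%), beside 3.69% and 6.07% of all genes. Array 3 was the highest array for 6 of the 24, and for 45% of the genes measured on every array. Complement C3, which forms the convertase that adipsin completes, fell by 1.04 ± 0.14 (SE, n = 4; adjusted p = 0.0069), but its other probe had a mean of 0.61. The call of C3 was lost without array 1 or 2. Leaving out arrays 1 to 4 in turn gave counts of 0, 0, 10 and 2 for the list, and of 365, 367, 5889 and 1117 for all genes. Factor B (Cfb), the substrate of adipsin, had a mean of -0.0006 ± 0.14 (adjusted p = 0.999). The adiponectin receptors Adipor1 and Adipor2 had means of -0.12 and 0.04 (adjusted p = 0.660 and 0.910), and the leptin receptor Lepr had 0.57 (adjusted p = 0.146). Ucp2, a relative of Ucp1, had -0.80, Cideb, a relative of Cidea, 0.66, and the complement protease Masp1 0.47 (adjusted p = 0.124, 0.126 and 0.126). Among the resistin relatives, Retnlg read -0.34, -0.67, 0.83 and -0.86, a gap of 1.17 that ranked 304. Retnla read 1.39 on array 3 and was well above background in liver 9 alone. Retnlb read 0.27, -0.18, 0.88 and 0.48 and was well above background in 2 livers labelled Plin2-ASO, liver 9 among them, and in 0 controls.

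Markers of other cell types were read beside these genes. The log2 of the summed signal of the 8 tested genes was 15.17 in liver 9 and 12.35 to 13.37 in livers 6, 7 and 10, against 12.11 to 12.80 in the controls. The brightest of the 8 was Cfd in liver 9 (14.33) and Mrap in each control (11.58 to 12.40). The sum is thus no level shared by the 8 genes, and the same values chose them. Of 10 adipose stromal markers 7 were tested, and their sum ran from 13.58 to 13.95 in livers labelled Plin2-ASO and from 13.68 to 13.84 in controls. The brightest were Dpp4 and Ly6a, with means of 12.66 and 12.11 in livers labelled Plin2-ASO. Liver 9 was the highest of these livers for Pdgfra (9.49), Cd34 (9.52) and Dpt (9.88), and not for Dpp4, Ly6a, Fbn1 and Col15a1. Ebf1 and Mfap5 stayed near background throughout. Of 11 skeletal muscle markers 6 were tested, with sums of 9.94 to 10.57 and 10.00 to 10.67, while Actn3, Pvalb and Mb were not well above background in any liver. The stromal list had a median of -0.44 on array 3 and -0.70 to 0.09 elsewhere, and the muscle list had 0.07 on array 3 and -0.21 to 0.06 elsewhere. Their part in the array 3 values was not tested.

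On array 3 the medians of the other lists were 0.15 for mesothelial markers (4 of 8 tested), -0.23 for exocrine pancreas (5 of 12), 0.82 for red blood cells (3 of 7), 0.03 for lymphocytes (7 of 8) and -0.53 for bile duct (6 of 7). For macrophages (9 of 10), endothelial cells (8 of 8) and stellate cells (8 of 8) they were -0.72, -0.46 and -0.35. Over arrays 1, 2 and 4 those 3 lists lay between -1.72 and -0.50. Macrophage markers went both ways: 3 rose and 5 fell by limma, beside 3.69% and 6.07% of all genes. On array 3 Vsig4 and Clec4f read 3.33 and 2.23, and Trem2 and Gpnmb read -1.78 and -2.56. Hepatocyte markers had their lowest median on array 3, -0.77, against -0.33 to -0.21 elsewhere.

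**Figure D4:**
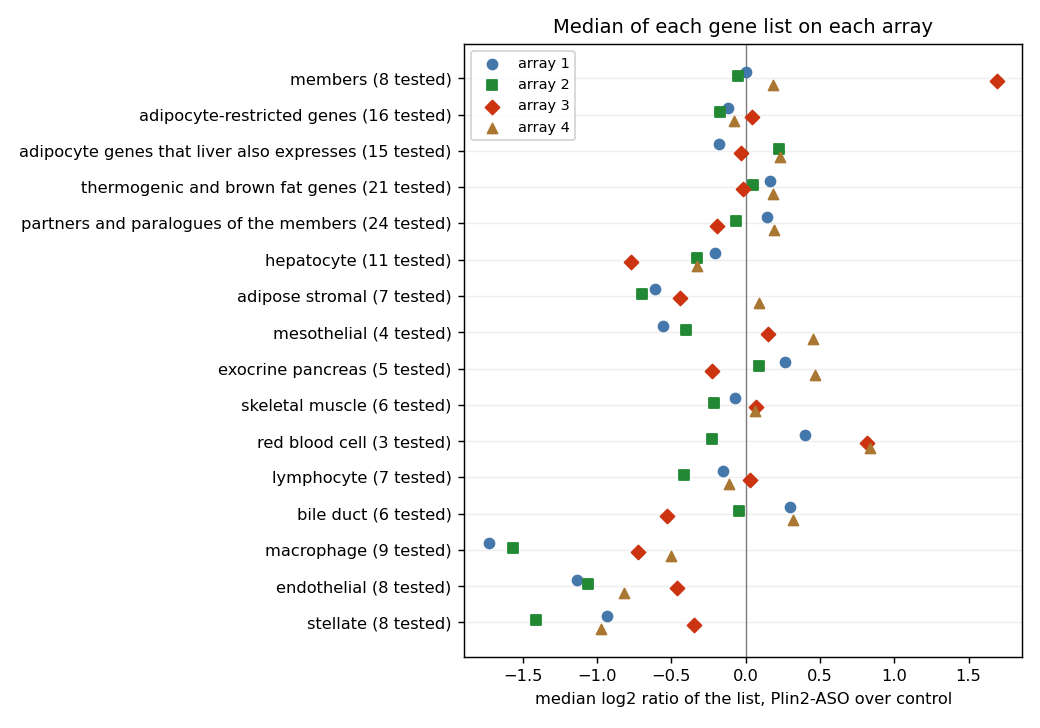
Median log2 ratio (horizontal axis) of the 10 genes, the 4 related lists and the 11 cell type marker lists (rows, with the number of genes tested) on each array; 1 symbol is 1 array. The 8 tested of the 10 genes, which were selected on such ratios, have a median of 1.69 on array 3. The adipocyte-restricted and thermogenic lists lie at 0.04 and -0.02 there, and nothing is read from the difference.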

How the data were processed

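Liver RNA of 8 mice was measured on 4 Agilent arrays of 2 colours, each with 1 control liver and 1 liver labelled Plin2-ASO. Per the labels, RNA was prepared with Trizol and amplified with an Ovation aminoallyl kit before the dyes were coupled. Per the file headers, the scans were read by Feature Extraction 9.5.1.1, and the deposited mean and local background intensities of each spot were used here. The deposited log10 ratios of the scanner files, and the log2 ratios of the authors' deposited series table, are red over green and served as alternatives with their sign turned.

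In limma 3.58.1 (R 4.3.3), normexp (offset 50) corrected the background and loess normalized the ratios of each array. Outlier spots were left out, and replicate spots were averaged. Of 41174 probes 27160 were kept, being well above background on at least 3 of 4 arrays in 1 channel. A gene was its brightest kept probe measured on at least 3 arrays, and 18045 genes were tested against 0 with lmFit and eBayes (two-sided, Benjamini-Hochberg at 0.05). Levels per liver are log2 signals after loess and scaling of the average intensities (Aquantile). For the fold of Retn, a dim control value was set to the lowest signal among probes well above background on its array.

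The 10 genes, the 4 related lists, the 11 marker lists and the rule for named genes (every probe of the 10 genes, the 4 smallest p of each related list, the 3 nearest patterns, and Plin2) were chosen with earlier results of these data known. Probe positions are those of the files (mm7), and gene names come from a table of GRCm38.p6. The fit was tested on simulated data. Alternatives changed the background correction, normalization, filters, source of ratios, variance model, array weights and arrays left out.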

Additional observations from a re-analysis of the deposited data

Results flagged for a closer look

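In 76 sets of 4 values (ratios over arrays, and levels over the livers of a group), the gap of the most extreme value to its neighbour was divided by the range, and 13 exceeded Dixon's 95% critical value for 4 values. Chance alone gives such a gap in about 1 set of 20, but the count has no bearing on chance here. The 10 genes were selected on their ratios, their nearest genes were picked for the same pattern, and ratios and levels share values. The gaps are therefore descriptions.

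Among the 10 genes the ratio of Ucp1 had a gap of 0.988, that of Adipoq 0.872 and that of Retn (A_52_P55972) 0.959, with array 3 high in each. For Retn no control liver was well above background. The level in the livers labelled Plin2-ASO was high in liver 9 for Ucp1 (0.874) and for Adipoq (0.866). In the control livers Adipoq was low in liver 4, on the same array (0.877). Its control level there was 7.80, against 8.24 to 8.30 in the other controls.

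Array 3 was also high in the ratios of Cox8b (0.8975), Gadd45a (0.973) and Ssb (0.913), which were picked as near Adipoq, Ucp1 and Aoc3 in pattern. Gadd45a read -0.33, -0.28, 1.66 and -0.29 on arrays 1 to 4. Array 4 was low in the ratios of Thrsp (0.857), Rbp4 (0.896) and Elovl3 (0.881), and high in that of Ucp2 (0.911). Ucp2 read -1.17, -1.13 and -1.28 on arrays 1 to 3 and 0.38 on array 4.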

How the results depend on the processing

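The count of genes called, 1761, was 7056 with array quality weights, and between 365 and 5889 with 1 array left out, the highest without array 3. With array quality weights the counts were 10 for the adipocyte-restricted list, 11 for adipocyte genes that liver also expresses, 9 for the thermogenic list and 11 for partners and paralogues. With 1 array left out these counts ran from 2 to 10, from 4 to 10, from 1 to 8 and from 0 to 10. A filter that asks for both channels above background on every array left 3 calls in the adipocyte-restricted list, and the mean of all kept probes left 0 among partners and paralogues (C3, adjusted p = 0.544). The other 58 counts stayed within 1.5 times their main value, and no call of the main fit in the 4 related lists changed direction. Among the 10 genes, Ucp1 had a mean of 0.99 and no call in the main fit. Without array 3 it was called with a mean of -0.36. Calls of Acsl1, Lipe and Agpat2 lay close to 0.05 and ended under some alternatives. Mean ratios of the 10 genes are dominated by array 3 for Ucp1, Adipoq, Slc36a2 and Retn. Retn, Ucp1, Aoc3, Aqp7 and a Slc36a2 probe were near background, which limits their ratios.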

Other observations

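The gap by which array 3 exceeded the next array was also wide for genes outside the lists, named after their values were seen. Prkar2b, a regulatory subunit of protein kinase A that is abundant in fat tissue, read -1.22, -1.54, 2.07 and -1.40 on arrays 1 to 4, and its gap of 3.30 ranked 4 among 16133 genes. Cav1, the coat protein of caveolae, which are dense in fat and endothelial cells, read -0.18, -0.69, 2.08 and -0.95 and ranked 8. Neither mean passed the test (adjusted p = 0.605 and 0.946 by limma, n = 4). Genes not known as fat markers had gaps of similar rank. Rgs1, a regulator of G protein signalling in immune cells, ranked 7 with -3.26, -3.73, -0.16 and -2.66. Esm1, secreted by endothelial cells, ranked 11 with -0.05, -0.97, 1.96 and -0.91, and Oit3 ranked 12 with -1.35, -1.05, 0.92 and -1.13.

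In liver 9 and in no other liver, 55 probes were well above background, against 78, 80 and 307 for livers 6, 7 and 10, and 586 for control liver 4. These counts cannot be compared evenly between livers, as array 3 had the lowest median signal in green (244) and the highest in red (637).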
